A study of Mus musculus with 8 samples.

Results

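Tight junction genes were followed over the day in mouse colonic crypts, the tubular glands that renew the lining of the colon. The 10 genes were Cldn2, Cldn3, Cldn4, Cldn7, Cldn8, Cldn15 and Cldn23, which encode claudins, together with Ocln (occludin), Tjp1 (ZO-1) and F11r (JAM-A). They were picked by name, as the junction components listed for the series, and all 10 were found among the 14247 genes of the table. RNA was sequenced from crypts of WT C57BL/6 mice kept under equal periods of light and dark. No transgene, Cre allele, agent or injury is given for any of the libraries. Zeitgeber time (ZT) counts hours from lights on, so that ZT0 opens the resting phase and ZT12 the active phase of the mouse. There were 2 libraries at each of ZT0, ZT6, ZT12 and ZT18, 8 in all, and they are named here by time point and replicate. The mice of the study were littermates a few months old. The preparation was scraped crypts passed through a strainer, with no sorting, and the labels call it colonic epithelial cell.

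Epithelial cells of the colon are joined near their luminal edge by the tight junction, which controls what passes between cells. Claudins span the membrane 4 times and set the selectivity of this path. Cldn3, Cldn4, Cldn7 and Cldn8 are known mainly as sealing claudins, while Cldn2 and Cldn15 form cation pores and Cldn23 modifies the barrier of the other claudins. Occludin is a further membrane protein of the junction, JAM-A is an adhesion molecule of the immunoglobulin family, and ZO-1 is the cytoplasmic scaffold that ties claudins and occludin to actin. In the colon, Cldn2 is typical of the crypt base and Cldn4, Cldn8 and Cldn23 of the upper crypt and surface.

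The libraries held 14722342 to 25159440 reads. The 10 genes had between 690 and 22755 reads in a library, and at 690 reads counting alone gives a coefficient of variation of 3.81%. Values are normalised counts, that is, reads divided by 1 size factor per library. The epithelial marker list (8 genes, Epcam and Cdh1 among them) summed to between 215823 and 279996 normalised counts, and none of its genes was at 0 in any library. Several libraries stood apart in markers of other cells or tissues. The smooth muscle list (6 of 7 genes measured) summed to 4050 normalised counts in ZT12 replicate 1 and 257 in ZT12 replicate 2, against 6.95 to 98.9 in the other 6, in 5 of which 3 to 5 of its genes were at 0. ZT12 replicate 1 was also highest for fibroblast markers (2574 against 188 to 822), ZT0 replicate 2 for B and plasma cell markers (2871 against 90.3 to 840), ZT18 replicate 1 for milk protein genes (4149 against 0 to 89.2) and ZT12 replicate 2 for prostate genes (3983 against 766 to 2430). Of the prostate genes 4 of 7 were measured. In every library except ZT12 replicate 2, 2 of them were at 0 reads, and in ZT12 replicate 2 none was. The part of all these marker signals in the results was not tested. In bulk RNA, fewer cells of a type and less RNA per cell cannot be told apart. The time labels were checked with Dbp, a target of the clock, which was 5.74 higher on the log2 scale at ZT12 than at ZT0 (SE 0.30, limma adjusted p = 0.000137).

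The claudin genes are compact and were placed on GRCm38 from the GENCODE M21 annotation. Cldn3 (chr5:134986214-134987472, plus strand) and Cldn4 (chr5:134945119-134946934, minus strand) are neighbours on chromosome 5, pointing away from each other with 39279 bases between them and 0 annotated genes wholly inside that gap. Cldn8 lies at chr16:88560828-88563183 on the minus strand. Cldn2 lies on chromosome X, at chrX:139800828-139811386. Cldn3 overlaps Wbscr25 on the opposite strand, and Tjp1 overlaps 3 predicted genes, of which Gm44795 lies on the opposite strand and Gm44794 and Gm44792 on the same one. Whether counting used the strand is not stated. Reads of opposite-strand pairs could be mixed without it, and those of same-strand pairs with or without it. The other 8 genes overlap no annotated gene.

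Promoter windows from RefSeq (GRCm38.p6, 250 bases before to 50 after the start) were matched to 8 of the 10 genes, Cldn8 and Cldn23 having no entry. The windows of Cldn4 and Cldn3 are shown because the genes are neighbours, and that of Cldn2 because it alone among the matched genes held a TATA box (TATAAA, present in 13.6% of all 32851 windows). Capitals mark the GC box (GGGCGG on either strand, in 35.7% of windows) or the TATA box, and each window reads 5′ to 3′ along the strand of its gene.
Cldn4, chr5:134946885-134947184, minus strand: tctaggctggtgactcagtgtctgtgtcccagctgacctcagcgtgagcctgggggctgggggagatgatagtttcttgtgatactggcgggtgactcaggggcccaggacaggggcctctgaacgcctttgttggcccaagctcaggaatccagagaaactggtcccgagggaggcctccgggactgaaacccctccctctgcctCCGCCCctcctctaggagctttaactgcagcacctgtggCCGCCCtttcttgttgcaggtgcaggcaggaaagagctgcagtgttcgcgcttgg
Cldn3, chr5:134985964-134986263, plus strand: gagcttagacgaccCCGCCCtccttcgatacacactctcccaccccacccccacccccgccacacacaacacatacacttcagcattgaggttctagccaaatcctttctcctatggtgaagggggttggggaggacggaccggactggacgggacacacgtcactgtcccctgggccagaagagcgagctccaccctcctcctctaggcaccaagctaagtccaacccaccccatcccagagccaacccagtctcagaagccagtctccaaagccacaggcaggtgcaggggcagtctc
Cldn2, chrX:139800558-139800857, plus strand: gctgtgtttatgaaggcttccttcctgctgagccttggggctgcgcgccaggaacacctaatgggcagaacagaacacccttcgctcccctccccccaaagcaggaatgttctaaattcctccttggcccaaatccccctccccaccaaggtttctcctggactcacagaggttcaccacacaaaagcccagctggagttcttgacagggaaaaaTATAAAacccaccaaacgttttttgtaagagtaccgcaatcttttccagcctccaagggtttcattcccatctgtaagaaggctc
Cldn4 held 2 GC boxes and Cldn3 held 1, while Cldn2 held none. The E-box CACGTG, the letters bound by the clock activators, was in 0 of the 10 windows of the matched genes, as were CACGTT and the D-box (TTATGTAA or TTACGTAA). These motifs were present in 7.15%, 4.69% and 1.06% of all windows. The search covered both strands of these windows only, and no site of one motif overlapped a site of another.

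Claudin levels were compared per kilobase of exon, since longer transcripts yield more reads. Cldn3 was the highest at 11438 ± 2175 normalised counts per kb (SD over the 8 libraries), followed by Cldn7 at 6421 ± 613 and F11r at 2040 ± 149. Each of these stood above the next in 8 of 8 libraries, and their ranges did not overlap. Cldn15 (1116 ± 187) and Cldn2 (1043 ± 598) came next, then Cldn4 (797 ± 243), Cldn23 (760), Cldn8 (691) and Ocln (592). From Cldn15 downwards the ranges of neighbours overlapped, and Cldn2 was above Cldn4 in 4 of 8 libraries. Tjp1 was the lowest at 302 normalised counts per kb, below Ocln in 8 of 8 libraries although the ranges overlapped. For scale, Epcam, the adhesion molecule that binds Cldn7, stood at 14016 normalised counts per kb. With the length of the longest transcript in place of all exons, Cldn7 was at 9369 normalised counts per kb and was still second among the 10.

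**Figure D1:**
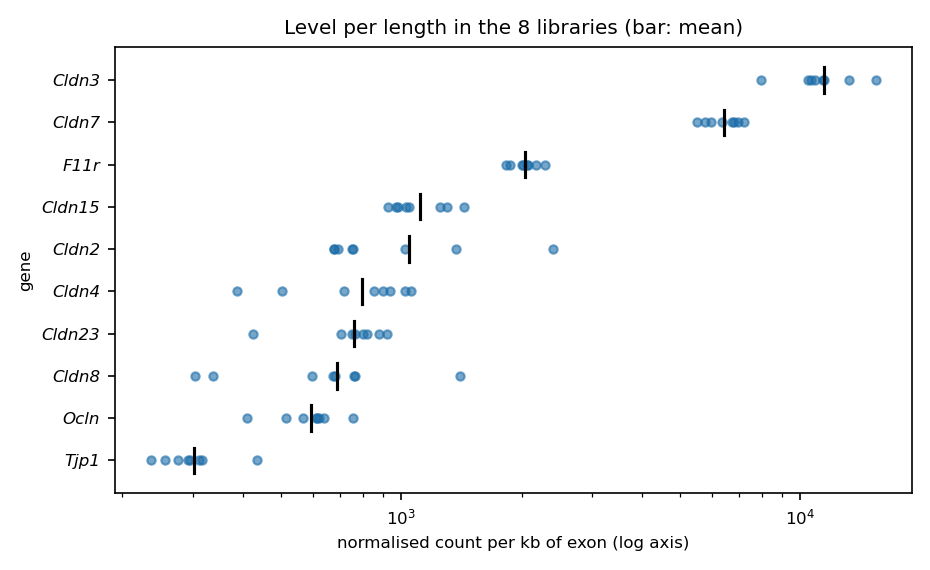
Level of each gene per kilobase of exon in the 8 libraries (points, log axis, normalised counts per kb), with the mean as a bar. Cldn3, Cldn7 and F11r form separate ranges at the top, the genes from Cldn15 to Ocln overlap, and Cldn2, Cldn4 and Cldn8 have the widest spread.

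The 10 genes were tested over time with limma on log2(normalised count + 1), together with all 13503 genes whose mean was at least 10. All 10 passed that minimum. After adjustment over all genes, 0 of 10 differed between the 4 time points, where 0.0889% of all genes were called. At an unadjusted p under 0.05 there were 2 of 10, Cldn4 and Cldn8, with 7.03% of all genes as background. The cosine fit with a period of 24 h called 0 of 10 (0.118% of all genes), and 1 of 10, Cldn8, unadjusted (9.15%). The clock genes Dbp and Nr1d1 were called in both tests. Arntl was called in neither, with limma adjusted p = 0.252 over the time points and 0.0831 in the cosine fit (amplitude 0.92). Genes not called can therefore still have a daily rhythm. An exact rank test for 24 h rhythms, akin to JTK, called 0 of 10 (0% of all genes) and 0 unadjusted (2.07%), and with 8 values its smallest adjusted p was 0.878. Its p cannot go below 0.0190 for a peak at a sampled time, or 0.114 for one between sampled times. A gene could pass adjustment only if many genes reached that limit, so this test cannot decide whether a gene has a rhythm. Of the other tools, edgeR on the recovered reads called 0 of 10 in the test over time points and in the cosine fit. For edgeR, here and below, the share of all genes called is not given, so its 0 cannot be set against a background. DESeq2 called 2 (1.64% of genes) and 1 (1.62%), again Cldn4 and Cldn8 and then Cldn8.

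In the 6 pairwise contrasts limma likewise called 0 of 10. The shares of all genes called were 0.0444%, 0.0667% and 0% where ZT6, ZT12 and ZT18 were set against ZT0, 0% and 0.0444% where ZT12 and ZT18 were set against ZT6, and 0.0296% for ZT18 against ZT12. Unadjusted, 3 of 10 passed for ZT12 against ZT0 (9.96% of all genes), 2 of 10 for ZT12 against ZT6 (6.78%) and 3 of 10 for ZT18 against ZT12 (9.03%). These were Cldn4 and Cldn8 in each of the 3 contrasts, and Tjp1 in the first and the last. The 3 contrasts without ZT12 had 0 of 10, beside 4.13% of all genes for ZT6 against ZT0, 5.02% for ZT18 against ZT0 and 6.71% for ZT18 against ZT6. With edgeR the contrasts called 0 of 10, with the same numbers unadjusted. DESeq2 called 2 for ZT12 against ZT0 (1.12% of genes), 1 for ZT12 against ZT6 (0.326%), 1 for ZT18 against ZT12 (0.748%) and 0 for the rest. The median log2 difference of the 10 genes between ZT12 and ZT0 was -0.08, and that of all genes was 0.01. For ZT12 against ZT6 these medians were -0.17 and 0.01, and for ZT18 against ZT12 they were 0.31 and -0.02. For ZT6 against ZT0 they were 0.145 and 0.007, and for ZT18 against ZT0 they were 0.06 and -0.003. For ZT18 against ZT6 they were -0.05 and -0.01.

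**Figure D2:**
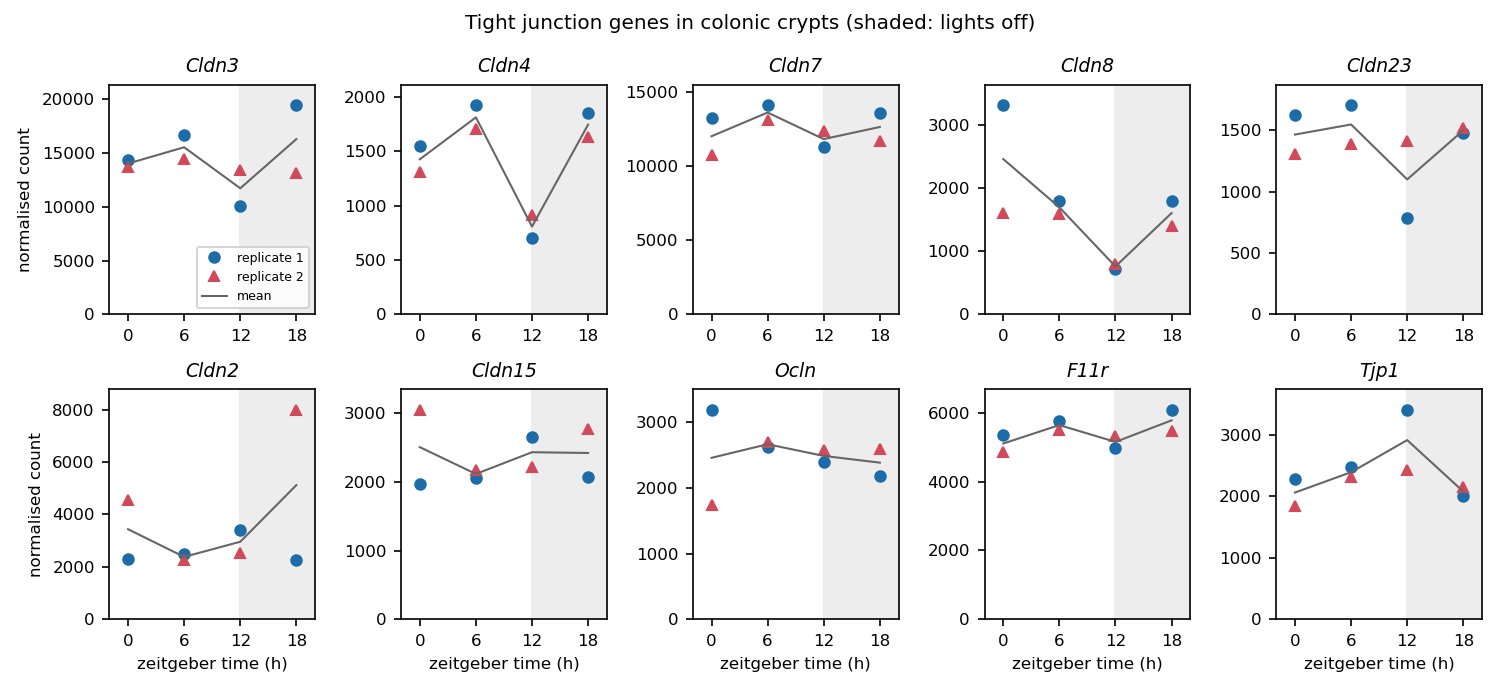
Normalised count (linear axis from 0) of each gene against zeitgeber time, with replicate 1 as circles, replicate 2 as triangles and a line through the means of the 2 libraries (shading marks lights off). Both ZT12 libraries lie below the other 6 for Cldn4 and Cldn8, whereas for Cldn2, Cldn15 and Ocln single libraries stand away from their partners.

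Cldn8, a sealing claudin of the distal colon and kidney, had the largest difference of the 10 between ZT12 and ZT0. The ZT0 libraries had 3307 and 1607 normalised counts, the ZT6 libraries 1798 and 1587, the ZT12 libraries 717 and 796, and the ZT18 libraries 1799 and 1404. Both ZT12 libraries were lower than every other library, and ZT0 replicate 1 was far above its partner. The level at ZT12 was 3.05-fold lower than at ZT0, a log2 difference of -1.61 (95% interval -2.29 to -0.93, limma adjusted p = 0.183). Against ZT6 the difference was -1.16 (interval -1.84 to -0.48, adjusted p = 0.697), and from ZT12 to ZT18 it was 1.07 (interval 0.39 to 1.76, adjusted p = 0.514). The cosine fit placed the peak at 0.21 h after lights on, with an amplitude of 0.81 on the log2 scale (limma adjusted p = 0.287). DESeq2 gave adjusted p = 0.00154 for the cosine fit and 4.33e-05 for ZT12 against ZT0. Over the 21 alternatives of that contrast the adjusted p ran from 4.33e-05 to 0.769.

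In limma the result for Cldn8 changed with the ZT0 library left out. Without ZT0 replicate 2, ZT0 keeps only the library highest in Cldn8, and the log2 difference between ZT12 and ZT0 was -2.13. Without ZT0 replicate 1 this difference was -1.09. Cldn8 was lower at ZT12 in each of these fits.

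Cldn4, a sealing claudin of the upper crypt and surface, was also lowest at ZT12. Normalised counts were 1548 and 1306 (ZT0), 1923 and 1703 (ZT6), 702 and 912 (ZT12), and 1858 and 1634 (ZT18). The ZT12 libraries were again the lowest of the 8, and within each time point the libraries lay closer together than those of Cldn8 at ZT0. The level was 2.26-fold lower at ZT12 than at ZT6, a log2 difference of -1.18 (95% interval -1.61 to -0.74, limma adjusted p = 0.278). Against ZT0 it was -0.83 (interval -1.26 to -0.39, adjusted p = 0.309), and from ZT12 to ZT18 it was 1.12 (interval 0.69 to 1.56, adjusted p = 0.246). The cosine fit gave an amplitude of 0.42 (limma adjusted p = 0.623), smaller than for Cldn8, as was the difference between ZT12 and ZT0. The libraries of ZT0, ZT6 and ZT18 lay between 1306 and 1923 normalised counts. DESeq2 gave adjusted p = 0.000267 for the test over time points, within a range of 0.000267 to 0.874 over 8 alternatives.

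Cldn4 and Cldn8 were the only 2 of the 10 with both ZT12 libraries below the other 6, and none had both above. Of all genes tested, 5.7% had both ZT12 libraries lowest, and the share with both highest was not counted. The same libraries carried the highest smooth muscle marker sums given above, and the lowest mitochondrial shares, 6.68% and 7.85% of reads against 9.80% to 22.2% in the other 6. Without ZT12 replicate 1, the library highest in smooth muscle and fibroblast markers, ZT12 against ZT0 stood at -1.53 for Cldn8 (limma adjusted p = 0.769) and -0.64 for Cldn4 (adjusted p = 0.974). Scaling each library to the epithelial marker list, an alternative added after the data were seen, gave -1.54 and -0.76, and scaling to non-mitochondrial reads gave -1.64 and -0.86. Across the 8 libraries the genes most like Cldn4 were Sqstm1 (Pearson r = 0.95), Phgr1 (0.94) and Sdhb (0.94). For Cldn8 they were Nubp2 (0.98), Usp43 (0.95) and Kif4 (0.95). These are the 3 highest of all genes tested, over 8 values, and are given as a description.

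**Figure D3:**
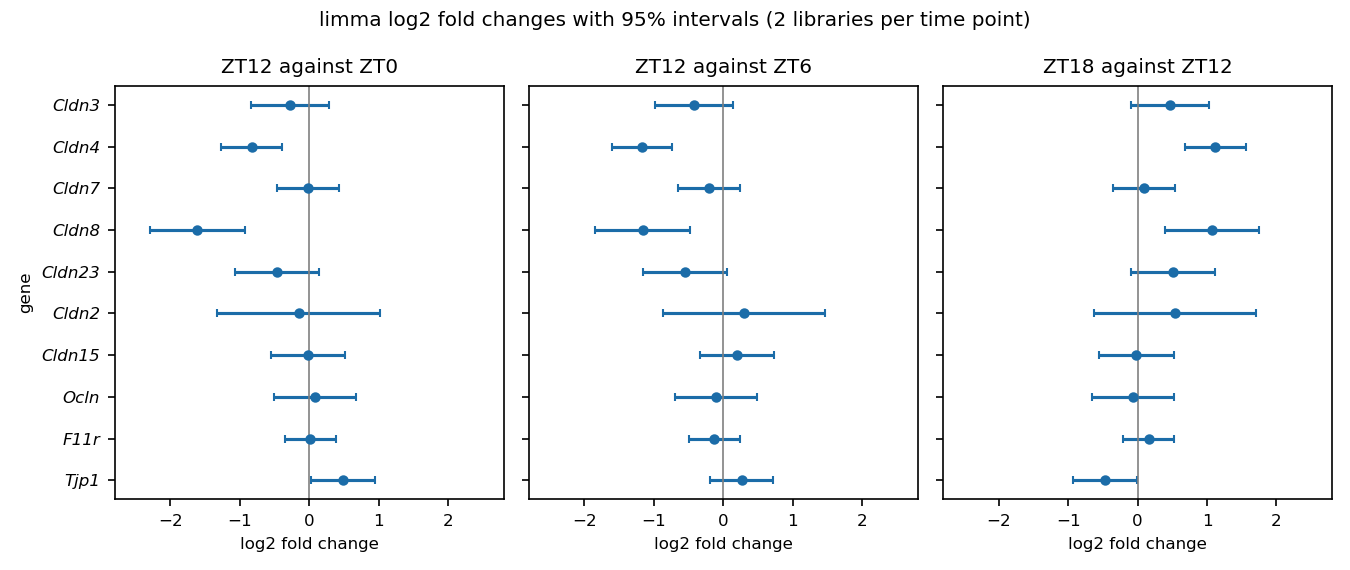
limma log2 fold changes with 95% intervals for the 3 contrasts that involve ZT12, 2 libraries per time point. The intervals of Cldn4 and Cldn8 exclude 0 in each of the 3 before adjustment over all genes, those of Tjp1 narrowly in 2, and those of the other genes include it.

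Cldn3, the most abundant claudin, had normalised counts of 14337 and 13723 (ZT0), 16677 and 14415 (ZT6), 10054 and 13395 (ZT12), and 19442 and 13166 (ZT18). The lowest value was ZT12 replicate 1, but ZT12 replicate 2 lay among the other libraries. The log2 difference between ZT12 and ZT0 was -0.27 (95% interval -0.84 to 0.29, limma adjusted p = 0.727). Cldn23 was similar, with 786 normalised counts in ZT12 replicate 1 and 1306 to 1704 in the other 7. Its difference of -0.47 (interval -1.07 to 0.14, limma adjusted p = 0.578) became -0.04 without that library, while that of Cldn3 became -0.07. Cldn7, which partners Epcam, was the steadiest claudin, between 10750 and 14080 normalised counts. The intervals for Cldn7 excluded log2 differences beyond -0.66 and 0.64 in the 6 contrasts, where the lowest limma adjusted p was 0.849.

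The pore-forming claudins were uneven between libraries of the same time point. Cldn2 had normalised counts of 2300 and 4561 (ZT0), 2499 and 2252 (ZT6), 3391 and 2516 (ZT12), and 2257 and 7976 (ZT18). ZT18 replicate 2 was 3.54 times the lowest library, and its partner was near the bottom. The log2 difference from ZT6 to ZT18 was 0.84 (95% interval -0.33 to 2.01, limma adjusted p = 0.85), and it was -0.07 without ZT18 replicate 2. For Cldn15 they were 1970 and 3046 (ZT0), 2054 and 2180 (ZT6), 2653 and 2215 (ZT12), and 2077 and 2768 (ZT18). The 3 libraries highest in Cldn15 (ZT0 replicate 2, ZT18 replicate 2 and ZT12 replicate 1) were also the 3 highest in Cldn2. Of these, ZT0 replicate 2 and ZT18 replicate 2 had the highest sums of the T cell list, 213 and 189 normalised counts against 14.9 to 125 elsewhere. B and plasma cell markers were highest in ZT0 replicate 2 and next in ZT12 replicate 1 (2871 and 840 normalised counts), and were at 122 in ZT18 replicate 2. These 3 libraries also had the lowest sums of the epithelial list, 215823, 219106 and 220676 normalised counts against 222000 to 279996 in the other 5. The part of these markers in the result was not tested.

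**Figure D4:**
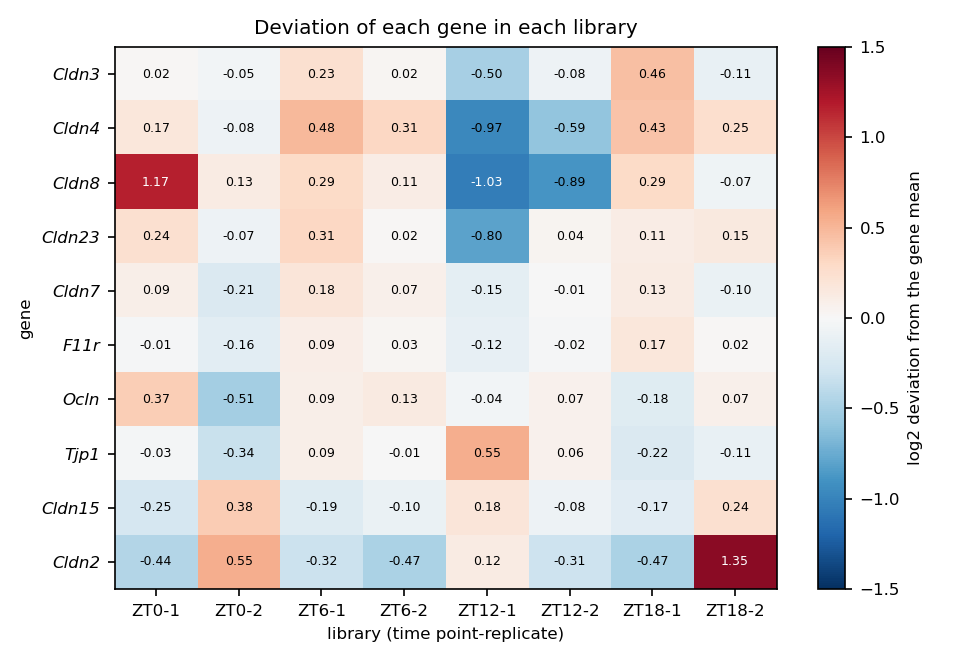
Log2 deviation of each gene (rows) from its own mean over the 8 libraries (columns), red above and blue below. Cldn4 and Cldn8 are blue in both ZT12 libraries, Cldn3 and Cldn23 mainly in ZT12 replicate 1, and Cldn2 and Cldn15 are red together in ZT0 replicate 2 and ZT18 replicate 2.

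Shares of the claudin pool show the same differences within a library, where a common scaling factor cancels. The pool is the sum over the 9 claudins of the table per kilobase, the 7 above with Cldn12 and Cldn14. Cldn3 made up 45.6% to 57.2% of it and Cldn7 25.6% to 33.0%. Cldn8 was 1.74% and 1.63% at ZT12, against 2.61% to 6.02% in the other 6 libraries. Cldn4 was 2.21% and 2.43% at ZT12, against 3.33% to 4.20%. Both genes already had their lowest counts in the ZT12 libraries, and most of the pool is Cldn3 and Cldn7. These shares therefore restate those counts and are no separate test. Cldn2 and Cldn15 together made up 6.95% and 13.0% of the pool (ZT0), 6.81% and 7.55% (ZT6), 13.0% and 8.70% (ZT12), and 6.14% and 16.2% (ZT18). The highest and the lowest of these shares both belonged to ZT18. Cldn12 took 1.12% to 1.97%, and Cldn14 stayed at or below 0.115%.

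**Figure D5:**
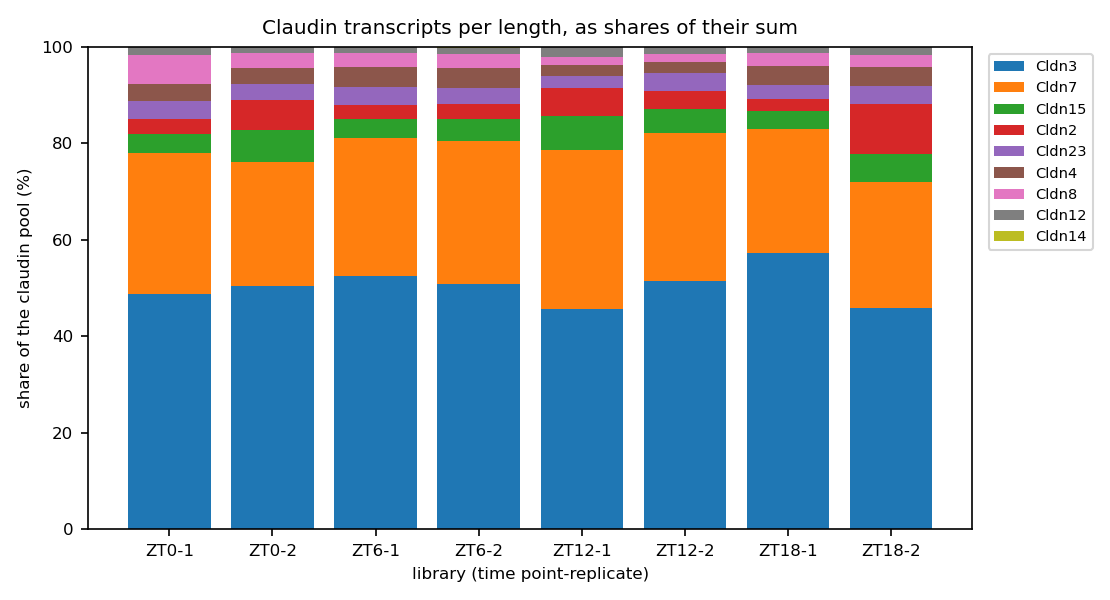
Share of each claudin in the summed claudin level per kilobase (percent, stacked to 100) for each library. Cldn3 and Cldn7 fill most of every bar, the Cldn4 and Cldn8 bands are thinnest in the ZT12 libraries, and the Cldn2 band is widest in ZT18 replicate 2.

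Occludin, ZO-1 and JAM-A had no case of both ZT12 libraries lying lowest. Ocln had 3185 and 1733 normalised counts at ZT0, and the other 6 libraries lay between 2175 and 2705. The 2 ZT0 libraries were the highest and the lowest of the 8. Its log2 difference between ZT12 and ZT0 was 0.08 (95% interval -0.51 to 0.67, limma adjusted p = 0.93), and it ran from -0.36 to 0.52 as single libraries were left out. Tjp1 had normalised counts of 2283 and 1840 (ZT0), 2474 and 2312 (ZT6), 3403 and 2429 (ZT12), and 2002 and 2153 (ZT18). ZT12 replicate 1 was the highest library and ZT12 replicate 2 lay just under the higher ZT6 library. The difference between ZT12 and ZT0 was 0.49 (interval 0.03 to 0.94, limma adjusted p = 0.482), and without ZT12 replicate 1 it was 0.25 (adjusted p = 1.00). F11r was the steadiest of the 10, between 4862 and 6088 normalised counts. The SD of its log2 values over the libraries was 0.11, and 1.96% of all genes tested had a smaller one.

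Other junction genes were taken from 5 lists: further claudins, other membrane proteins, scaffold and polarity proteins, adherens junction and desmosome proteins, and regulators of claudins. Of 97 listed genes 75 were in the table and 73 were tested. In limma, 0 of 73 passed after adjustment in the F-test, the cosine fit or any contrast. The rank test, with the limit given above, also had 0 of 73. With edgeR there were also 0 in the F-test, the cosine fit and the 6 contrasts, while DESeq2 called 1 of 73 over the time points (Dsp), 2 in the cosine fit (Eppk1 and Ybx3) and 2 for ZT12 against ZT0 (Dsp and Eppk1), beside 1.64%, 1.62% and 1.12% of all genes. Unadjusted, 8 of 73 passed the F-test (7.03% of all genes) and 7 of 73 the cosine fit (9.15%). For ZT12 against ZT0, 12 of 73 passed without adjustment (9.96% of all genes), of which 10 were higher and 2 lower at ZT12. Of the 24 scaffold and polarity genes tested, 5 passed the F-test without adjustment, where 7.03% of all genes did. Tjap1, a tight junction associated protein, was 0.51 lower on the log2 scale at ZT12 than at ZT0 (SE 0.20, limma adjusted p = 0.472). Ybx3, a Y-box protein that binds ZO-1, was 0.55 lower (SE 0.28, limma adjusted p = 0.538), with 3139 and 5439 normalised counts at ZT0. For ZT12 against ZT6 the log2 difference was -0.28 for Tjap1 and -0.005 for Ybx3. Among the 18 adherens junction and desmosome genes, the cytolinkers Eppk1 and Dsp were higher at ZT12 than at ZT0 by 0.80 (SE 0.20, limma adjusted p = 0.343) and 0.81 (SE 0.22, adjusted p = 0.351).

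Among the 19 regulators tested, 4 passed for ZT12 against ZT0 without adjustment, beside 9.96% of all genes, and these 4 were higher at ZT12. Spint1, an inhibitor of the protease matriptase, differed by 0.62 (SE 0.18, limma adjusted p = 0.381). Mylk, the myosin light chain kinase that acts on the junctional actin ring and is also a smooth muscle gene, differed by 1.05 (SE 0.35, limma adjusted p = 0.407), in the libraries with the highest smooth muscle sums. Of the 9 membrane proteins tested, 0 passed the F-test without adjustment. Igsf5 (JAM4) and Ildr1 (angulin-2) had the smallest p, with limma adjusted p = 0.702 and 0.743. The 3 remaining entries of the claudin list, Cldn12, Cldn14 and Cldnd1, also gave 0, with limma adjusted p = 0.749 for Cldnd1 and 0.813 for Cldn14.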

How the data were processed

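Colonic crypt RNA of 2 libraries per time point was sequenced. The authors aligned reads with STAR to GRCm38 (mm10) and used DESeq2. Counting, annotation and strand use are not given in the sources used here. The deposited values are a signal, the read count of each gene divided by a size factor (normalised count). All values came out as whole reads (100% within 0.1 read in each library), which edgeR 4.0.16 and DESeq2 1.42.0 used as alternatives. The authors also deposited their own comparison (log2 fold change, standard error, test score, p-value and its adjusted form), which was not used.

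The main test was limma 3.58.1 (trend) in R 4.3.3 on log2(normalised count + 1) for genes averaging at least 10, with 8 libraries in 1 fit, checked on simulated data. Such fold changes understate those of low genes. p-values were adjusted by Benjamini-Hochberg over 13503 genes, with 0.05 as threshold. The study collected crypts from mice killed at each time point, and its captions give more mice per group than the 2 libraries analysed here. Which animals each library holds is not stated, so p-values measure the spread between these samples, which may be technical. The smallest rank test p is 0.0190 for peaks at a sampled time and 0.114 for peaks between sampled times. The alternatives were other pseudocounts, filters, scalings and tools, a replicate block and leaving out libraries.

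All members are named. From other lists, the 2 genes with the smallest F-test p per list are named, and for Cldn4 and Cldn8 the 3 most similar genes. The members and lists were chosen with earlier results of these data known.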

Additional observations from a re-analysis of the deposited data

How the results depend on the processing

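Of the counts of tight junction genes called, 171 were unchanged across alternatives and 7 were larger. The larger ones came from DESeq2, with 2 of 10 in the test over time points, 1 in the cosine fit, 2 for ZT12 against ZT0 and 1 each where ZT12 met ZT6 or ZT18, and from leaving out single libraries, where the count ran from 0 to 1 in the cosine fit and for ZT12 against ZT0. The gene called was Cldn8 without ZT0 replicate 2, where ZT0 keeps only the library highest in Cldn8. The share of all genes called in that fit is not given. With a replicate block the count stayed at 0 of 10. Same-numbered libraries showed weak or opposite deviations (correlations of -0.29 to 0.22), and the main fit used no pairing. These correlations cannot exclude a pairing by number, since the libraries also differed in markers of other cells. Where a left-out library leaves 1 at its time point, that one is assumed to vary like the others.

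Of the log2 differences, 470 kept their direction and side of the threshold, 5 became called and 29 changed sign, the latter all small in the full fit apart from Cldn2 between ZT18 and ZT6. Between ZT12 and ZT0, F11r became -0.0033 with TMM rescaling, -0.051 with quantile normalisation and -0.021 with scaling to non-mitochondrial reads, Cldn7 became 0.041 with quantile normalisation and 0.053 with epithelial scaling, and Cldn15 became 0.055 with epithelial scaling. Between ZT18 and ZT6, Cldn3 became -0.012 with quantile normalisation and F11r became -0.0089 with scaling to non-mitochondrial reads. The cause was not tested.

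With single libraries left out, the ranges between ZT12 and ZT0 were -0.64 to 0.34 for Cldn2, -0.17 to 0.13 for Cldn7, -0.33 to 0.30 for Cldn15, -0.36 to 0.52 for Ocln and -0.058 to 0.086 for F11r. Between ZT18 and ZT6 they were -0.072 to 1.75 for Cldn2, -0.24 to 0.33 for Cldn3, -0.15 to 0.038 for Cldn4, -0.22 to 0.00031 for Cldn7, -0.27 to 0.091 for Cldn8, -0.027 to 0.39 for Cldn15, -0.18 to 0.11 for Cldn23 and -0.040 to 0.11 for F11r.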
